A study of Mus musculus with 18 samples.

Results

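The immunoglobulin heavy chain variable genes are the 185 features whose name starts with Ighv, out of 32285 features in the gene expression files. They were followed in plasma cells and B cells of the mouse gut. A cell counted as a plasma cell when it held at least 1 UMI (1 counted RNA molecule) of each of Mzb1, Xbp1 and Derl3 and none of Cd3e. A cell counted as a B cell when it held at least 1 UMI of each of Ms4a1 and Cd79a and none of Cd3e. The small bowel lamina propria, the connective tissue under the epithelium, gave 6691 plasma cells and 1224 B cells among 21347 cells. The colon, where lamina propria and epithelium were processed together, gave 1599 plasma cells and 7060 B cells among 21286 cells. Both gates were met by 198 lamina propria cells and 311 colon cells.

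The study compared mice without ST8Sia6 (KO), a sialyltransferase acting on glycans, with heterozygous (het) and sufficient wildtype (WT) mice. A run took 1 KO mouse, 1 het mouse and 2 WT mice, there were 3 independent runs, and cells were enriched for CD45 with beads before droplet capture. Antibody hashtags marked the genotype, 1 hashtag per genotype, so the 2 WT mice of a run share a hashtag. The labels used here name the groups by ST8Sia6 genotype and give no age, sex or strain. Cell barcodes carry an ending from 1 to 9. Endings 1 to 3, 4 to 6 and 7 to 9 were taken as libraries 1, 2 and 3, and the hashtag with the highest median gave each ending its genotype. All cells of 1 class, tissue and ending form 1 sum, so each tissue has 9 sums, 3 per genotype, and a WT sum pools 2 mice. The same mice can stand behind both tissues, and p-values measure the spread between sums.

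A heavy chain variable gene encodes most of the antigen-binding domain of an antibody. Each developing B cell joins 1 variable segment to a diversity and a joining segment, and its descendants, plasma cells included, keep that choice, so the variable gene of a cell is a lineage label. Gut plasma cells mostly secrete IgA, whose constant region is encoded by Igha and whose dimers are joined by the J chain, Jchain. The mouse Ighv genes lie in a row on chromosome 12 and fall into families by sequence likeness, of which Ighv1 (J558) has the most members.

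Depth and background set what could be read. The kept cells of an ending held 10988933 to 30418604 UMIs in colon and 12257992 to 23884067 in lamina propria. The top hashtag of single cells matched the genotype of the ending in at least 95.6% of cells in 17 of 18 endings. The exception was the lamina propria WT ending of library 3, at 55.5%, although among its plasma cells the share was 97.4%. No barcode was shared between endings of 1 library. T cells, which should express no heavy chain, gave the background: they had a median of 2 Ighv UMIs in both tissues, and 82.4% of 2956 colon and 83.6% of 922 lamina propria T cells had at least 1. The median depth was 5405 UMIs in those colon T cells and 2653 in the lamina propria T cells.

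Plasma cells stood far above that background. They held a median of 3444 Ighv UMIs among a median of 22784 UMIs per cell in colon, and 466 among 11562 in lamina propria. Colon B cells held a median of 8 Ighv UMIs among 4027, and lamina propria B cells held 3 among 2386, close to the T cell level. Plasma cells had Sdc1 (syndecan-1, a plasma cell surface protein) in 83.9% of colon and 85.7% of lamina propria cells. The B cell gene Ms4a1 was seen in 19.6% of colon plasma cells and 2.97% of lamina propria plasma cells, so a larger share of the colon plasma gate held Ms4a1 transcripts.

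Nearly every plasma cell was dominated by 1 Ighv gene. A gene was called leading when it held at least 50% of a cell's Ighv UMIs, with at least 5 such UMIs in a plasma cell and 2 in a B cell. A leading gene was found in 95.5% of colon plasma cells (1527 cells) and 92.8% of lamina propria plasma cells (6209 cells). In these plasma cells the median share held by the strongest gene was 99.4% in colon and 98.5% in lamina propria. Under the 5-UMI rule 6.01% to 14.1% of T cells of a colon ending and 0.709% to 7.41% of a lamina propria ending also had a leading gene, though T cells should have none. A leading gene was found in 68.6% of colon B cells (4845 cells) against 17.0% to 27.1% of colon T cells under the same 2-UMI rule. In lamina propria B cells the share was 25.9% (317 cells) against 4.96% to 14.3% of T cells. Lamina propria B cells are therefore given little room below.

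Plasma cells used many variable genes, and the most used gene of a sum led 5.78% to 7.13% of its cells in lamina propria and 5.88% to 8.45% in colon. The effective number of genes, which is the number of equally used genes that would give the same chance of 2 cells sharing a gene, was 41.2 ± 3.1 (SD, n = 9 sums) in lamina propria and 46.8 ± 5.2 (n = 9) in colon plasma cells. Colon B cells gave 45.8 ± 2.1 (n = 9). Of the 185 features, 158 had a UMI in some cell, 98 led at least 1 plasma cell and 79 led at least 10. The 10 most used genes together led 36.9% of lamina propria and 35.9% of colon plasma cells, and 17 and 18 genes were needed to reach 50%. The use was thus broad in all 18 plasma cell sums.

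The same few genes headed the list in both tissues. Ighv1-26 (chr12:114788372-114788665) led 5.94% ± 0.60 of lamina propria plasma cells (SD, n = 9 sums, range 4.86% to 7.13%). Ighv1-81 (chr12:115920279-115920572) led 4.70% ± 1.39, and Ighv3-6 (chr12:114288152-114288447) led 4.63% ± 1.20. The spreads of the last 2 overlapped, so their order is not resolved. Ighv1-53 followed with 4.10% ± 1.07, then Ighv1-55 with 3.41% ± 0.67, Ighv1-64 with 3.19% ± 0.58 and Ighv9-3 with 3.13% ± 0.71. Ighv1-72, Ighv1-76 and Ighv1-9 completed the 10, at 2.77%, 2.55% and 2.46%. Coordinates are those of RefSeq for GRCm38.p6, the build also known as mm10, where these 3 genes are annotated as variable segments.

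In colon plasma cells Ighv1-81 led 4.56% ± 1.76 (SD, n = 9), Ighv1-26 4.24% ± 2.17, Ighv3-6 4.24% ± 1.70, Ighv1-64 4.13% ± 1.95 and Ighv1-55 4.03% ± 1.16. These 5 means differ by less than their SDs. Ighv1-53, Ighv1-9, Ighv1-72 and Ighv9-3 led between 2.74% and 3.18%, and Ighv14-2 (chr12:113994469-113994898) led 2.48% ± 1.34. The 2 tissues shared 9 of their 10 most used genes, the exceptions being Ighv1-76 in lamina propria and Ighv14-2 in colon. Across the 98 genes that led a plasma cell, mean use in the 2 tissues correlated with Pearson's r 0.93 and Spearman's rho 0.93, a description across genes of the same mice. Colon sums hold fewer cells (87 to 292 against 513 to 1186), which widens their spread.

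**Figure D1:**
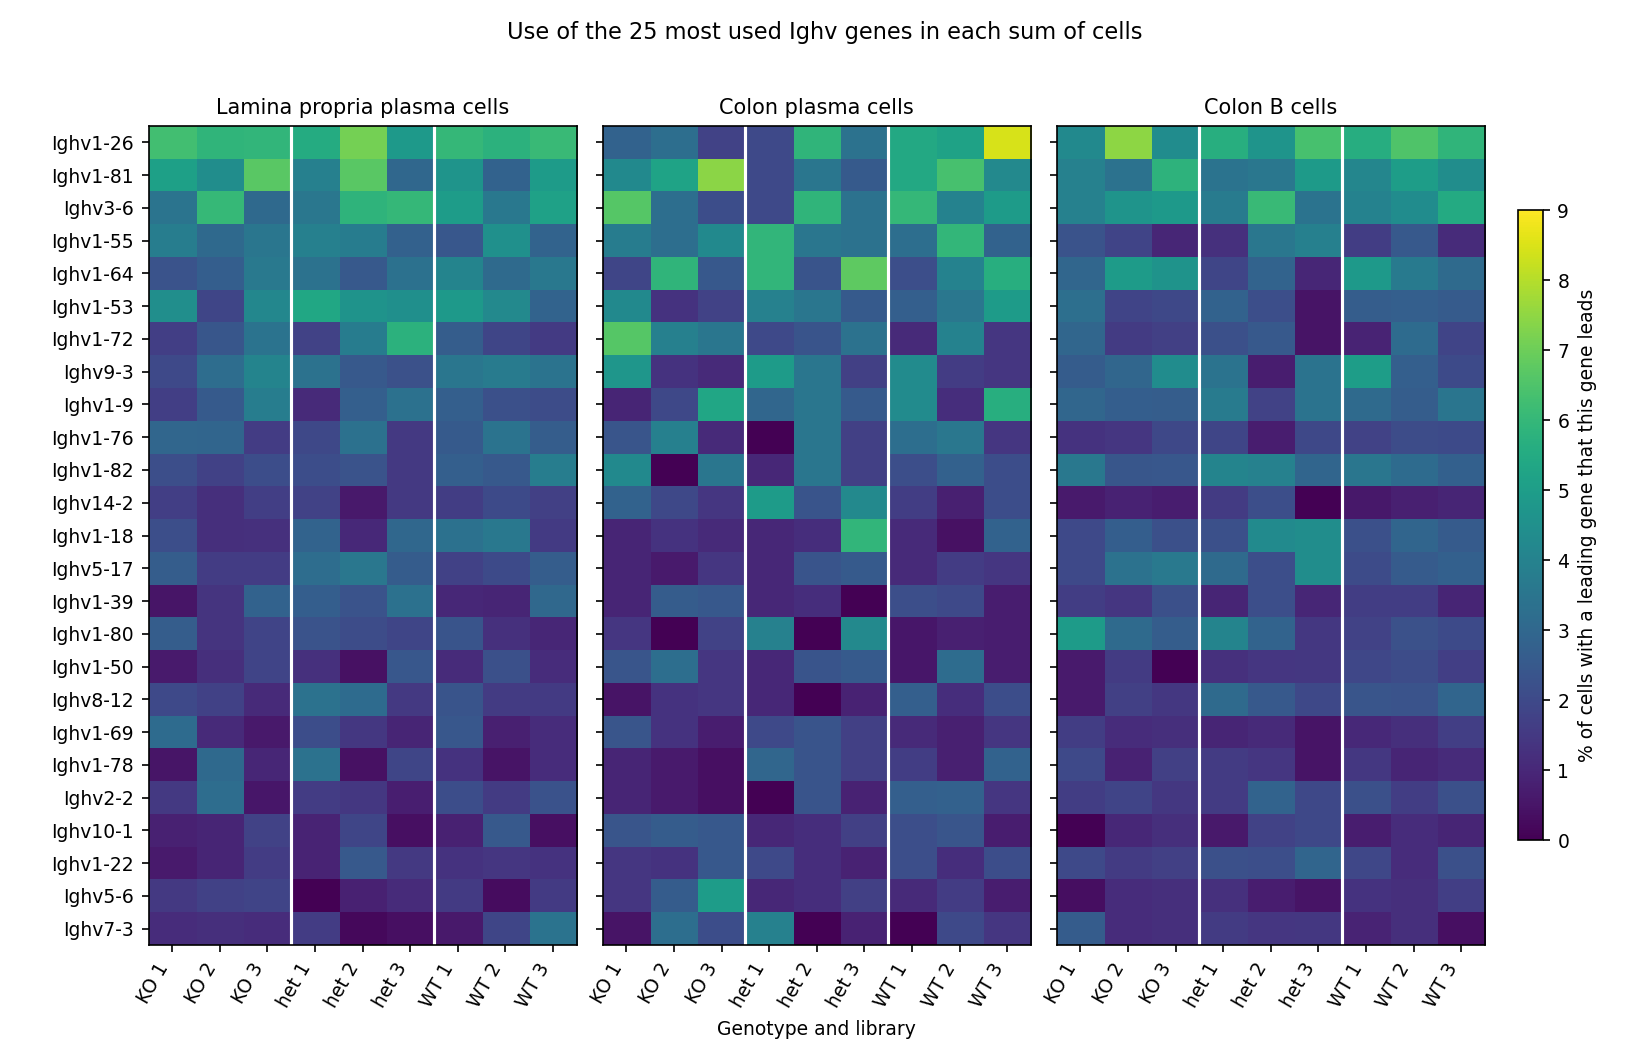
Share of cells led by each of the 25 most used Ighv genes (rows, ordered by mean use in plasma cells; colour, % of cells with a leading gene) in every sum (columns: genotype and library 1 to 3) of lamina propria plasma cells, colon plasma cells and colon B cells. Ighv1-26 is high in all 9 lamina propria sums, from 4.86% to 7.13%, while colon plasma sums, which hold fewer cells, vary more, from 1.77% to 8.45% for that gene.

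The most used gene of a sum changed from sum to sum, mostly within this short list. In lamina propria Ighv1-26 was the most used gene of 5 of 9 sums, Ighv3-6 of the KO sum of library 2 and the het sum of library 3, and Ighv1-81 of the KO sum of library 3. In the KO sum of library 2 Ighv3-6 led 6.02% of cells and Ighv1-26 5.89%, so their order is not resolved. The het sum of library 1 was headed by Ighv1-84, a gene at 0.312% to 2.84% in the other lamina propria sums, with 34 of 561 cells (6.06%). In that sum 21 cells joined Ighv1-84 to the kappa light chain variable gene Igkv6-13. In colon plasma cells Ighv3-6, Ighv1-72, Ighv1-55, Ighv1-81, Ighv1-64 and Ighv1-26 took turns at the top, 3 times in a tie.

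By family, Ighv1 led 63.2% ± 3.8 of lamina propria plasma cells, 62.2% ± 2.9 of colon plasma cells and 58.9% ± 1.5 of colon B cells (SD, n = 9 sums each), with 93 of the 185 features. Ighv5, a family near the diversity segments, led 7.40%, 7.14% and 8.99% of the same 3 classes, and Ighv3 led 6.15%, 5.89% and 6.31%. Ighv14, a family of 4 features, led 4.05% ± 1.02 of lamina propria and 5.53% ± 1.99 of colon plasma cells. Ighv9, Ighv2, Ighv8, Ighv10, Ighv6 and Ighv7 each led between 1.53% and 4.70% of plasma cells of a tissue, and the other 6 families stayed under 1%.

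The position along the locus was read in 3 blocks of 61 genes each, starting from the side of the diversity segments. The block farthest from them, from Ighv1-43 to Ighv1-86, led 43.7% of lamina propria plasma cells, 45.5% of colon plasma cells and 40.7% of colon B cells. The near and the middle block led 27.8% and 28.5% in lamina propria plasma cells and 27.9% and 26.6% in colon plasma cells. Distant genes were thus used in all 3 classes. Of 120 features that RefSeq annotates as variable segments, 95 led a plasma cell. Of 63 annotated as pseudogenes only Ighv7-3, Ighv7-1 and Ighv1-2 did, in 77, 10 and 3 lamina propria cells and 24, 1 and 0 colon cells. These 3 were chosen after their values were seen. Ighv5-8.1 and Ighv1-13.1 had no match in the RefSeq table.

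The variable genes Ighv11-2 and Ighv12-3, used by innate-like B-1 cells, rarely led a cell. Both encode antibodies to phosphatidylcholine and mark peritoneal B-1 cells. Other variable genes that B-1 cells may use were not singled out, so the share of B-1 cells as a whole is not given. Ighv11-2 led 6 of 6209 lamina propria plasma cells, 5 of them in the KO sum of library 1, no colon plasma cell and 2 colon B cells. Ighv12-3 led no lamina propria plasma cell, 1 of 1527 colon plasma cells and 4 colon B cells. A count of 0 among 1527 and among 6209 cells allows a share of up to 0.196% and 0.0483%. These limits cover counting error only.

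The constant region expressed with the variable genes was mostly that of IgA. Igha held the most constant-region UMIs in 99.7% ± 0.28 of lamina propria and 91.9% ± 3.1 of colon plasma cells (SD, n = 9 sums each). By the same rule Igha also led in 91.7% of lamina propria B cells and 27.1% of colon B cells. The part of background Igha RNA in the isotype calls of either tissue was not tested. Colon plasma cells with a leading Ighv gene included 39 led by Ighm and 60 led by an Ighg gene, against 1 and 19 in lamina propria. The effective number was 47.7 among the 1424 colon Igha cells, 46.3 among the Ighm cells and 36.1 among the Ighg cells. The Ighv1 family led 62.1%, 56.4% and 73.3% of these, and an Ighv14 gene led 5.55%, 2.56% and none of them. Cells of several sums were pooled here, so no test was made between isotypes.

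Genotype was compared with the library as a block in edgeR, while the permutation tests and overlap counts below take no account of the library. St8sia6 was checked first. In lamina propria plasma cells it stood at 33.6, 37.1 and 40.2 CPM (UMIs scaled to a common total per sum) in the KO sums of libraries 1 to 3, at 50.7, 55.0 and 58.5 in the het sums and at 62.3, 72.1 and 76.6 in the WT sums. The groups did not overlap, and the log2 difference of KO from WT was −0.93 with an SE of 0.06 (edgeR quasi-likelihood test, adjusted p 0.0073). St8sia6 UMIs were thus still counted in the KO sums, at a lower level. The part of background RNA from cells of the other genotypes, pooled before capture, was not tested. In colon plasma cells the values were 17.4 to 20.8 CPM in KO and 29.8 to 35.6 CPM in WT, with a log2 difference of −0.78 ± 0.14 (adjusted p 0.138). Whether the counted part of St8sia6 lies inside the deleted part is not given in the sources used here.

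In lamina propria plasma cells no Ighv gene passed the test between genotypes. Of 110 tested Ighv genes, edgeR called 0 between KO and WT (3 of 11672 genes in all, a background of 0.0257%), while 16 Ighv genes had an unadjusted p under 0.05 and 3 passed in DESeq2. Between het and WT it called 0 of 110, against a background of 0%, while 18 had an unadjusted p under 0.05 and 2 passed in DESeq2. The median log2 difference of the 110 genes between KO and WT was 0.01, and over all genes tested it was 0.01. The leading gene Ighv1-26 took 6.28%, 5.89% and 5.92% of cells in the KO sums, 5.53%, 7.13% and 4.86% in the het sums and 5.98%, 5.78% and 6.08% in the WT sums. The 3 groups overlapped. Without library 3, edgeR called 0 Ighv genes between KO and WT and 1 between het and WT. With only cells whose own top hashtag was that of their ending, it called 0 in both comparisons.

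Evenness of use overlapped between KO and WT. The effective number was 44.9, 44.5 and 39.8 in the lamina propria KO sums, 38.5, 35.6 and 41.5 in the het sums and 40.7, 44.4 and 41.2 in the WT sums (KO against WT, exact permutation test, two-sided p 0.8). Among colon plasma cells it was 42.7, 49.9 and 43.9 in KO, 49.5, 57.6 and 48.6 in het and 46.1, 41.9 and 41.2 in WT (exact permutation p 0.5). In colon B cells the KO sums gave 48.6, 43.4 and 45.0 and the WT sums 44.3, 42.7 and 45.3 (exact permutation p 0.5). KO and WT overlapped in all 3 classes. With 3 sums against 3 the smallest p is 0.1. A WT sum pools 2 mice and a KO or het sum holds 1, and the part of this in the effective number was not tested. The het sums were the lowest on average in lamina propria and the highest in colon, which was not tested.

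The Ighv1 family led 57.0%, 57.7% and 65.6% of lamina propria plasma cells in the KO sums and 67.6%, 61.4% and 63.1% in the WT sums, which overlap (exact permutation p 0.3). Colon plasma cells of the KO sums gave 59.2%, 60.8% and 66.3% and the WT sums 57.1%, 63.3% and 64.8% (exact permutation p 1.0). In colon B cells the KO sums stood at 58.6%, 57.5% and 56.8%, all below the WT sums at 59.6%, 61.3% and 59.6% (exact permutation p 0.1, the smallest possible, adjusted over 18 tests 0.3). Ighv UMIs made up 18.0%, 17.7% and 17.1% of all UMIs in the colon KO plasma sums and 16.4%, 16.1% and 15.6% in the WT sums, again without overlap (exact permutation p 0.1, adjusted 0.3). The same sums were also separated by the share of cells with Igha as leading constant gene, 93.1% to 96.2% in KO and 87.8% to 88.7% in WT. Summed epithelial markers (Epcam, Fabp1, Krt8 and Krt20) stood at 169 to 198 CPM in KO and 216 to 312 CPM in WT. This sum need not measure epithelial RNA alone. Epcam was seen in 72.4% of colon plasma cells, 30.8% of colon B cells and 37.7% of colon T cells. Krt8 was seen in 44.2%, 46.5% and 45.2% of them. The part of the Igha share or of these markers in the Ighv share was not tested. In lamina propria plasma cells the same share was 6.20%, 5.83% and 5.18% in KO and 5.82%, 5.51% and 5.77% in WT, which overlap.

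In colon plasma cells 2 of 106 tested Ighv genes were called between KO and WT (6 of 10060 genes in all, a background of 0.0596%), and both calls rested mostly on 1 cell per sum. Ighv8-13 had 59, 44 and 459 UMIs in the WT sums, none, none and 7 in the KO sums, and none, none and 1 in the het sums. Its log2 difference was −6.94 with an SE of 0.26 (edgeR, adjusted p 6.5e-05), and against het −8.38 ± 0.36 (adjusted p 0.000183), the 1 Ighv gene of 106 called between het and WT against a background of 0.00994%. In each WT sum 1 cell held 98.3%, 100% and 86.5% of these UMIs. In those cells Ighv8-12, Ighv8-5 and Ighv8-8 led, and Ighv8-13 made up 1.30%, 0.884% and 5.04% of their Ighv UMIs. No colon plasma cell was led by Ighv8-13. Without library 3 the adjusted p was 0.430 for KO and 0.553 for het, and without the library term in the model it was 0.169 and 0.239. Over the settings run, the log2 difference ranged from −8.26 to −6.57 for KO and from −8.95 to −7.71 for het.

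Ighv1-73 had 53, 43 and 32 UMIs in the colon KO plasma sums, none in the WT sums and 1, 2 and none in the het sums. The fitted difference between KO and WT was 8.41 ± 0.68 on the log2 scale (adjusted p 0.0484), a value that depends on the prior count since all WT sums are at 0. In the KO sums 1 cell held 88.7%, 97.7% and 56.2% of the UMIs, and these cells were led by Ighv1-63, Ighv1-84 and Ighv1-55, genes of the same family. No plasma cell was led by Ighv1-73. The fitted difference was 8.19 to 8.59 in the settings run. Its call was lost without each library in turn (adjusted p 0.0782 to 0.240), without the library term (0.123) and without cells that meet both gates (0.109). The authors' counting may split reads of a mutated variable gene between similar family members, and its part in both results was not tested.

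A call in colon B cells also rested on 1 cell per sum. Ighv14-3 had 2549, 2912 and 1390 UMIs in the KO sums, 47, 122 and 20 in the WT sums and 20, 20 and 3 in the het sums. It was the 1 called Ighv gene of 87 between KO and WT (log2 6.58 ± 0.36, adjusted p 0.00124), against 3 of 11270 genes in all, a background of 0.0266%. In each KO sum 1 cell held 98.9%, 97.4% and 99.7% of these UMIs. When cells that meet both gates were left out, the difference was 0.20 with an adjusted p of 1.0, and 0 of 79 Ighv genes were called (10 at an unadjusted p under 0.05). By cells, Ighv14-3 led 5, 6 and 1 B cells in the KO sums and 1, 8 and 1 in the WT sums. Between het and WT 0 of 87 Ighv genes were called by edgeR (background 0.0532%), although 17 had an unadjusted p under 0.05 and 3 passed in DESeq2.

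Counting cells rather than UMIs gave each cell equal weight. For genes that led at least 1% of cells on average, KO and WT sums did not overlap for 5 of 37 genes in lamina propria plasma cells (13.5%), 2 of 41 in colon plasma cells (4.88%) and 7 of 42 in colon B cells (16.7%). Over all genes tested, the CPM of KO and WT sums did not overlap for 16.3%, 18.6% and 9.5% in the same 3 classes, and over Ighv genes for 15 of 110, 10 of 106 and 7 of 87. CPM and shares of cells are different measures. By CPM the Ighv genes lay below the share over all genes in each of the 3 classes, and by shares of cells they lay above it in colon B cells. No test was made of either, and the genes and families named next are descriptions. The 2 genes of colon plasma cells whose shares did not overlap were Ighv1-26 and Ighv2-2. Ighv1-26 led 2.84%, 3.27% and 1.77% of cells in the KO sums, 1.98%, 5.88% and 3.39% in the het sums and 5.43%, 5.18% and 8.45% in the WT sums. By UMIs the log2 difference of Ighv1-26 was −0.80 with an SE of 0.32 (edgeR, adjusted p 0.335), so the difference did not pass the test. In colon B cells the KO sums at 4.28%, 7.45% and 4.37% overlapped the WT sums at 5.60%, 6.53% and 5.88%.

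Among families above 1%, KO and WT sums did not overlap for 0 of 10 in lamina propria plasma cells, 2 of 10 in colon plasma cells and 5 of 11 in colon B cells, and no test was made of these counts. Over all genes tested, CPM did not overlap for 16.3%, 18.6% and 9.5% in these classes, which is a different measure. The family shares of a sum add up to the whole, so families do not vary independently. The family with the widest gap in colon plasma cells was Ighv8, singled out after its values were seen. It led 2.37%, 1.31% and 1.77% of cells in the KO sums, 1.98%, 2.35% and 4.24% in the het sums and 3.804%, 5.18% and 4.93% in the WT sums. Every KO sum lay below every WT sum. In colon B cells Ighv8 led 4.28%, 4.50% and 2.91% in KO and 4.72%, 4.81% and 6.43% in WT, also without overlap. In lamina propria plasma cells the KO sums at 3.14%, 4.02% and 2.30% overlapped the WT sums at 3.45%, 3.59% and 2.66%. The difference between the tissues was not tested, and the colon plasma shares rest on 12 KO and 27 WT cells.

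The second family without overlap in colon plasma cells was Ighv6, at 2.84%, 3.92% and 2.48% in KO and 1.63%, 1.59% and 1.41% in WT. These shares rest on 19 KO and 9 WT cells. In colon B cells Ighv6 ran the other way, at 1.97%, 3.23% and 2.43% in KO and 4.13%, 4.24% and 3.31% in WT. In lamina propria plasma cells the KO sums at 2.31%, 3.35% and 2.56% overlapped the WT sums at 1.83%, 1.25% and 2.85%.

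**Figure D2:**
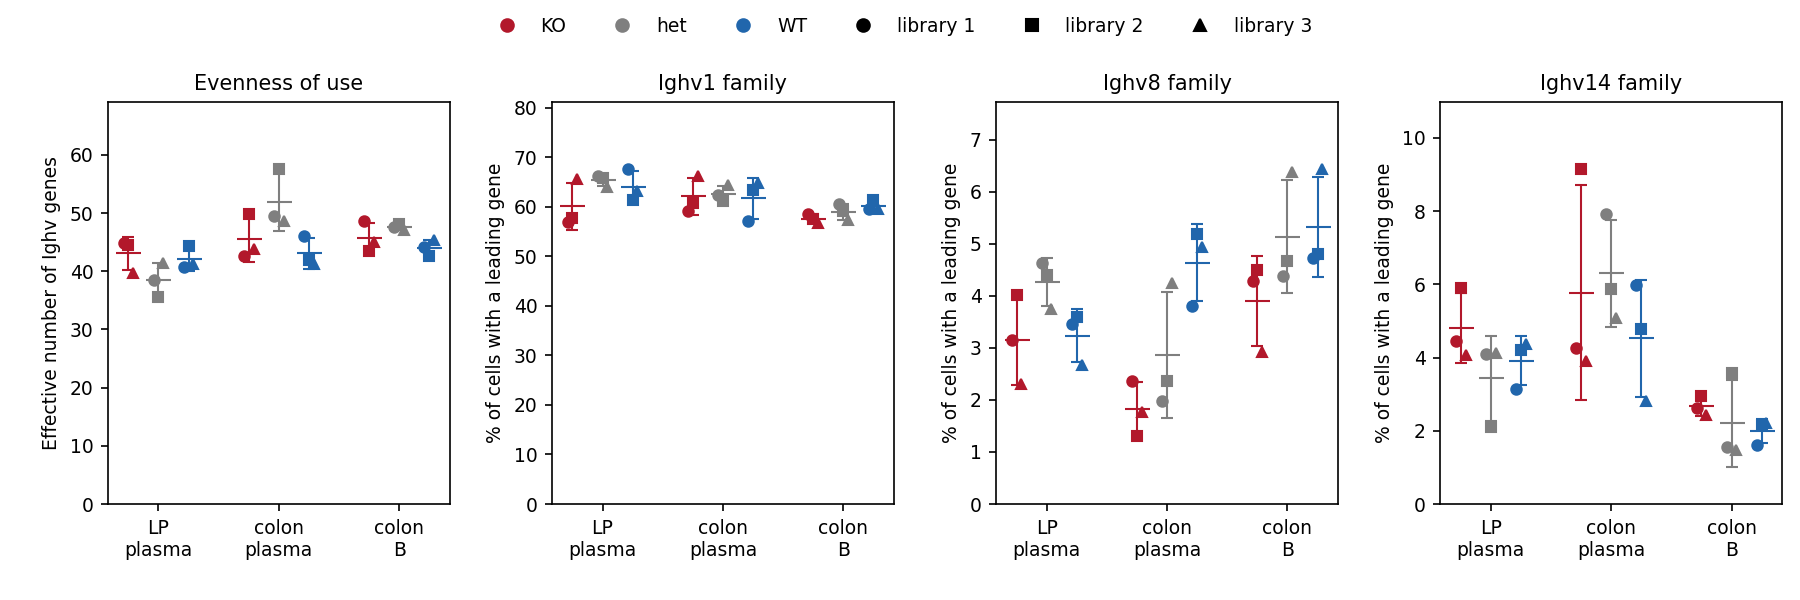
Effective number of Ighv genes and share of cells led by the Ighv1, Ighv8 and Ighv14 families (vertical axes) in lamina propria (LP) plasma cells, colon plasma cells and colon B cells; points are sums, marker shape the library, colour the genotype, and bars the mean and SD of 3 sums. KO and WT points overlap in every class for the effective number, and in lamina propria plasma cells in every panel. For Ighv8 in colon plasma cells the KO sums lie at 1.31% to 2.37% and the WT sums at 3.804% to 5.18%. In colon B cells KO and WT points do not overlap for any of these families. For Ighv14 the colon B cell sums lie at 2.43% to 2.95% in KO and 1.62% to 2.21% in WT.

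Plasma cells and B cells of the same ending were compared after cells that meet both gates were left out. Ighv UMIs made up 18.2% ± 0.8 of all UMIs in colon plasma cells and 0.245% ± 0.084 in colon B cells (SD, n = 9 sums), higher in 9 of 9 endings (exact permutation test within endings, p 0.00391, adjusted 0.0352). By edgeR 58 of 75 Ighv genes were higher in plasma cells and none was lower, against 71.8% of all genes called, 33.5% as higher and 38.3% as lower. The median log2 difference of the 75 genes was 6.77, against −0.09 over all genes. Ighv1-26 rose by 7.81 ± 0.27 (SE, adjusted p 6.7e-11), Ighv1-81 by 7.77 ± 0.26 and Ighv1-55 by 8.12 ± 0.41. In lamina propria 77 of 77 Ighv genes were higher in plasma cells, against 64.1% of all genes called, 32.3% as higher and 31.8% as lower, with a median of 6.42. Ighv genes pass the filter on low counts mostly through the plasma sums, where they are high, so these counts depend on that filter. Without the filter 98 of 150 Ighv genes in colon and 118 of 147 in lamina propria were called higher, and 0 lower. Of all genes, 38.9% and 32% were then called.

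Which genes each class used was read from the shares of cells, since UMIs rose for nearly all. Ighv14 genes led 5.43% ± 1.89 of colon plasma cells and 2.06% ± 0.69 of colon B cells (SD, n = 9), higher in plasma cells in 8 of 9 endings. Of its 4 members, Ighv14-3 led 1.63% of plasma against 0.404% of B cells, Ighv14-2 2.08% against 0.739% and Ighv14-4 1.41% against 0.579%, while Ighv14-1 stood at 0.306% against 0.338%. Ighv8 genes ran the other way, at 3.18% ± 1.75 of plasma cells and 4.93% ± 1.13 of B cells, higher in plasma cells in 0 of 9 endings. Ighv5 genes led 7.25% against 9.07% and were higher in 3 of 9 endings. The Ighv1 family led 61.6% ± 4.6 against 58.6% ± 2.0, higher in 8 of 9 endings (exact permutation test within endings, p 0.0898, adjusted 0.3).

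Among single genes above 1% in either class, 50 in all, Ighv1-7 had the highest ratio of plasma to B cell share. It led 18 plasma cells, 1.33% ± 1.14 over the 9 sums, and 6 B cells, 0.0929% ± 0.15, and was higher in plasma cells in 7 endings and lower in 1. Ighv14-3 followed, then Ighv1-47 at 1.08% against 0.280%, Ighv14-2, Ighv14-4, Ighv1-84 at 1.11% against 0.477% and Ighv1-55 at 4.41% ± 1.39 against 2.13% ± 1.15. Ighv1-55, the most used of these, was higher in plasma cells in 8 of 9 endings. The lowest ratios were those of Ighv1-5, at 0.297% against 1.13%, and Ighv1-15, at 0.599% ± 0.62 against 2.12% ± 0.58. Ighv1-15 was lower in plasma cells in 9 of 9 endings, and Ighv5-17, at 1.35% against 2.94%, in 8 of 9. Mean use in the 2 classes correlated across 98 genes with Pearson's r 0.83 and Spearman's rho 0.84.

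**Figure D3:**
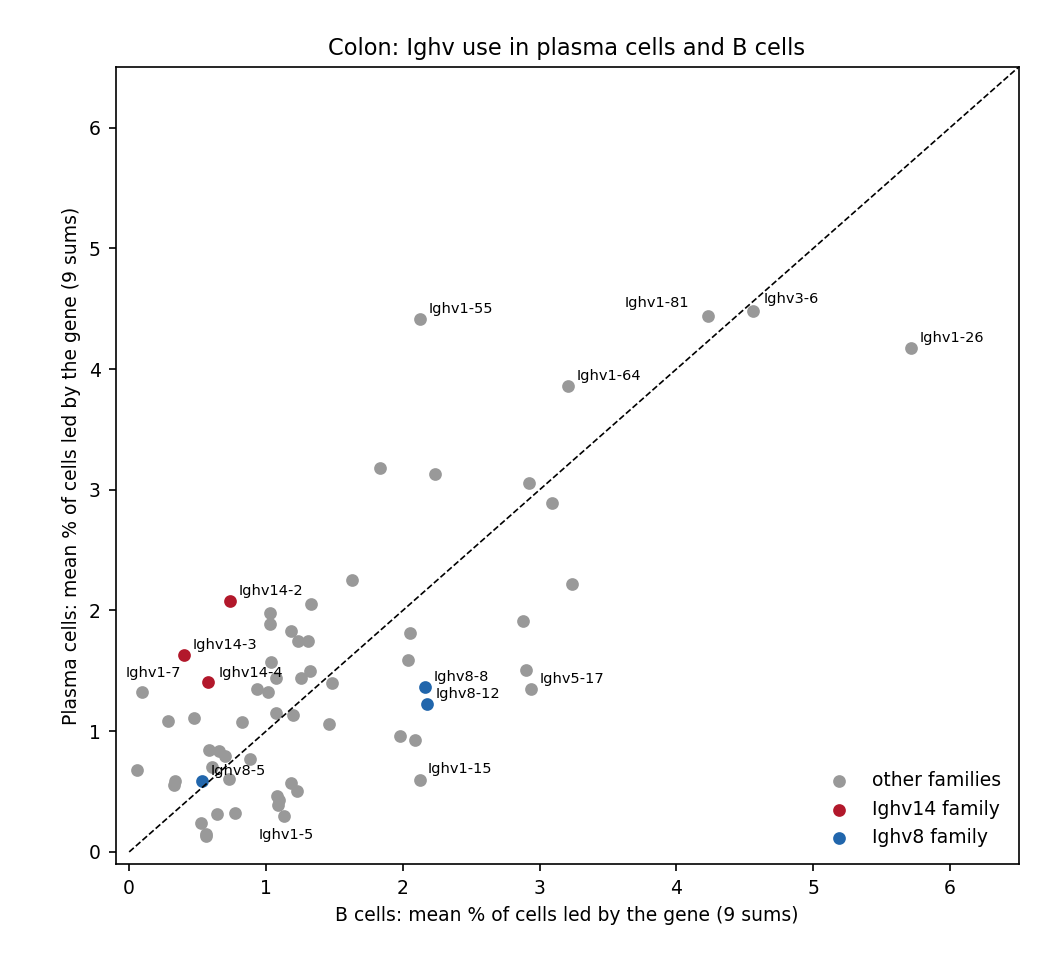
Mean share of colon B cells (horizontal axis, %) and of colon plasma cells (vertical axis, %) led by each Ighv gene with at least 0.5% in either class, over 9 sums each and without cells that meet both gates; the dashed line marks equal use, red marks the Ighv14 and blue the Ighv8 family. Ighv14-2, Ighv14-3 and Ighv14-4 lie above the line and Ighv8-8 and Ighv8-12 below it, and Ighv1-55 stands at 4.41% of plasma against 2.13% of B cells.

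The depth differs between the classes: colon B cells held a median of 8 Ighv UMIs and colon plasma cells 3444, over all cells of each gate, and T cells, which should hold none, had a median of 2. The part of this background and of expanded lineages in these differences was not tested. In lamina propria only 4 endings had at least 20 B cells with a leading gene once cells in both gates were left out. There the Ighv14 family led 4.09% of plasma cells over all 9 sums and 1.04% of B cells over those 4 sums, and was higher in plasma cells in 3 of the 4 endings. The Ighv8 family, lower in colon plasma cells, led 3.56% of lamina propria plasma cells and 1.14% of B cells, also higher in plasma cells in 3 of the 4. Ighv1 was higher in 2 of the 4.

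Between tissues, plasma cells differed in the share of variable-gene UMIs. T cell receptor genes also differed in variable against constant UMIs, as given below. Ighv UMIs made up 16.8% ± 0.8 of all UMIs in colon plasma cells and 5.77% ± 0.35 in lamina propria plasma cells (SD, n = 9 sums each), with no overlap (exact permutation test, two-sided p 4.1e-05, the smallest the 9 sums against 9 allow, adjusted 0.00074). Igha ran the other way, at 3.20% to 3.77% of UMIs in colon and 16.4% to 20.2% in lamina propria, and its log2 difference was −2.49 ± 0.16 (adjusted p 7.9e-10). By edgeR 36 of 95 Ighv genes were called, 32 higher and 4 lower in colon, against 59.1% of all 10639 genes called, 29.8% as higher and 29.3% as lower. The median log2 difference of the 95 genes was 1.21 and that of all genes 0.01. The edgeR p-values between tissues take the sums as independent, although the same mice can stand behind both tissues.

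Ighv14-2 had the smallest p. It differed by 2.46 ± 0.34 in the fit of both tissues together (log2, SE, edgeR, adjusted p 6.3e-06). It stood at 811 to 5978 CPM in the 9 colon sums (median 2267) and at 254 to 627 CPM in the 9 lamina propria sums (median 521). These CPM were scaled within each tissue, so the ranges do not share a scale. On these separate scales all colon sums lay above all lamina propria sums. By cells it led 2.48% ± 1.34 in colon and 1.53% ± 0.41 in lamina propria, which overlap. Ighv1-26 was higher in colon by 1.02 ± 0.15 on the log2 scale of UMIs (adjusted p 1.9e-05), while it led a smaller share of cells there, 4.24% against 5.94%. Ighv1-81, Ighv3-6, Ighv1-64, Ighv1-55 and Ighv1-53 rose by 1.20 to 1.99. Ighv12-3 was called at 3.72 ± 0.75 (adjusted p 0.000373), although it led 1 colon plasma cell. The 4 lower genes were Ighv2-6, Ighv7-1, Ighv9-4 and Ighv1-49, and the last differed by −5.37 ± 1.31 (adjusted p 0.00176).

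The ratio of variable to constant UMIs was higher in colon for each of the 4 chains read, by different amounts. Per heavy constant UMI, plasma cells held 4.27 to 4.78 Ighv UMIs in the 9 colon sums (median 4.64) and 0.261 to 0.377 in the 9 lamina propria sums (median 0.327). For the kappa light chain, Igkv UMIs per Igkc UMI were 8.79 to 13.6 in colon and 1.98 to 2.57 in lamina propria. T cells, which carry other receptors, differed too: Trbv UMIs per Trbc1 and Trbc2 UMI were 2.07 to 3.20 in colon and 0.211 to 0.420 in lamina propria, and Trav UMIs per Trac UMI were 1.21 to 2.02 and 0.136 to 0.430. No tissue ranges overlapped. B cells gave 3.09 to 4.19 Ighv UMIs per heavy constant UMI in colon and 0.261 to 0.468 in lamina propria. Tissue and library preparation or sequencing run cannot be told apart here, since each library holds 1 tissue.

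**Figure D4:**
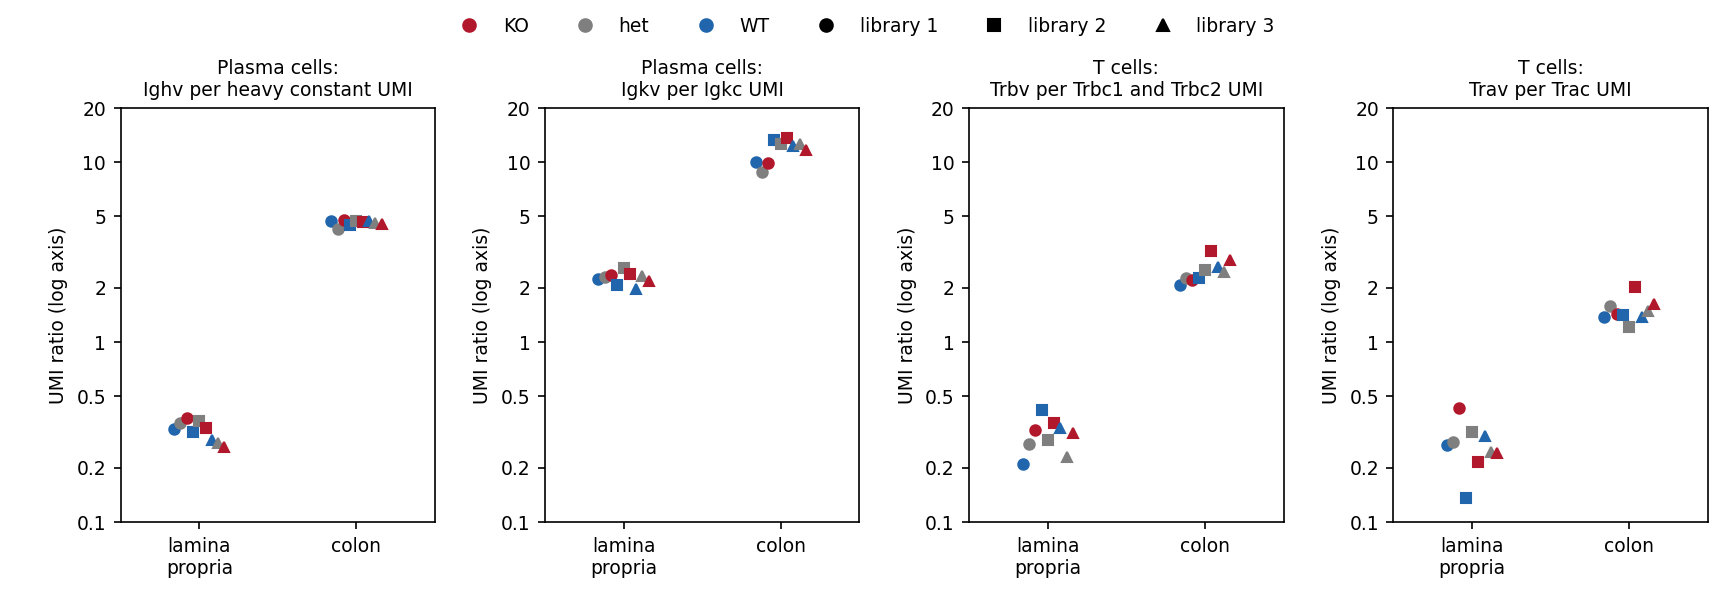
UMIs of variable genes per UMI of constant genes (vertical log axes) in each ending of lamina propria and colon: Ighv and Igkv in plasma cells, Trbv and Trav in T cells; colour marks genotype and shape the library. In all 4 panels the colon points lie above the lamina propria points without overlap, for Ighv at 4.27 to 4.78 against 0.261 to 0.377.

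By shares of cells, plasma cells of the tissues overlapped in evenness and in Ighv1 use. The effective number was 46.8 ± 5.2 in colon and 41.2 ± 3.1 in lamina propria (SD, n = 9 each; exact permutation p 0.01, adjusted over 18 tests 0.06), and the ranges of 41.2 to 57.6 and 35.6 to 44.9 overlapped. This test takes the sums as independent, although both tissues came from the same mice of a run, per the labels. The same holds for the other permutation tests and for the edgeR fits between tissues. Between sums of the same genotype and library number colon was higher in 6 of 9, by up to 21.9 in the het sum of library 2, and lower by up to 2.47. The widest differences were those of het, at 11.1, 21.9 and 7.11 in libraries 1 to 3. Those of KO were −2.25, 5.40 and 4.10, and those of WT 5.39, −2.47 and −0.0066. The tissue difference over all sums passed the threshold when the leading gene had to hold 80% of Ighv UMIs (5.43, exact permutation, adjusted p 0.0241). It also passed with gates of 2 UMIs per gene (5.75, exact permutation, adjusted p 0.0197). The Ighv1 share was 62.2% ± 2.9 and 63.2% ± 3.8 (exact permutation p 0.52). Between B cells of the 2 tissues 9 of 56 Ighv genes were called, 2 higher and 7 lower in colon, against 55.9% of all genes called, 27.4% as higher and 28.5% as lower. Without cells that meet both gates these became 9 higher and 4 lower of 47, so no direction is drawn for B cells.

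A heavy chain gene together with the light chain gene of the same cell traces a lineage more closely than the heavy chain gene alone. In 5987 lamina propria and 1479 colon plasma cells both chains had a leading gene. A sum held 292 to 544 different pairs in lamina propria and 75 to 198 in colon. The most common pair of a sum took 1.47% to 3.90% of its cells in lamina propria and 1.90% to 4.42% in colon, so no pair dominated a sum. By share the first in lamina propria was Ighv1-84 with Igkv6-13, in 21 of 538 cells of the het sum of library 1, and in colon Ighv1-80 with Igkv1-117, in 5 of 113 cells of the het sum of library 3. By number of cells they were Ighv1-81 with Igkv1-110, in 24 of 1107 cells of the lamina propria KO sum of library 3, and Ighv1-81 with Igkv1-88, in 9 of 245 cells of the colon WT sum of library 2.

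Pairs recurred between the tissues within a genotype and library number. Of the cells of a lamina propria sum, 13.0% to 30.0% (median 17.8%, 9 combinations) had a pair also found in the colon sum of the same genotype and library number. For the same genotype in another library the range was 7.06% to 17.1% (median 9.69%, 18 combinations), and for another genotype 3.78% to 16.5% (median 10.3%, 54 combinations). Each of the 9 colon sums shared the most with the lamina propria sum of its own genotype and library number, and each of the 9 lamina propria sums did so with the matching colon sum. The heavy chain genes alone were compared by another measure, Pearson's r of gene use. By that measure only 2 of 9 colon sums were most like their counterpart. Since the measures differ, what the light chain adds cannot be read from this contrast. The labels say that small intestine and colon came from the same mice of a run, but do not say whether library numbers of the 2 tissues mark the same run. The sharing is given as a description without a test.

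Single pairs make this visible. Ighv1-9 with Igkv8-30 was found in 16 of 1107 lamina propria and 8 of 269 colon plasma cells of the KO sums of library 3, and in 2 and 1 cells of the other 8 sums of each tissue. Ighv1-69 with Igkv1-110 was found in 7 lamina propria and 3 colon cells of the KO sums of library 1, and in 2 and none elsewhere. Ighv1-82 with Igkv3-7 was found in 6 and 3 cells of the KO sums of library 1 and in no other sum. Other pairs were common to many mice: Ighv1-81 with Igkv1-117 was found in 9 and 3 cells of the KO sums of library 3 and in 33 and 8 cells elsewhere. Joining regions were not analysed here, so cells with 1 pair need not be 1 lineage.

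**Figure D5:**
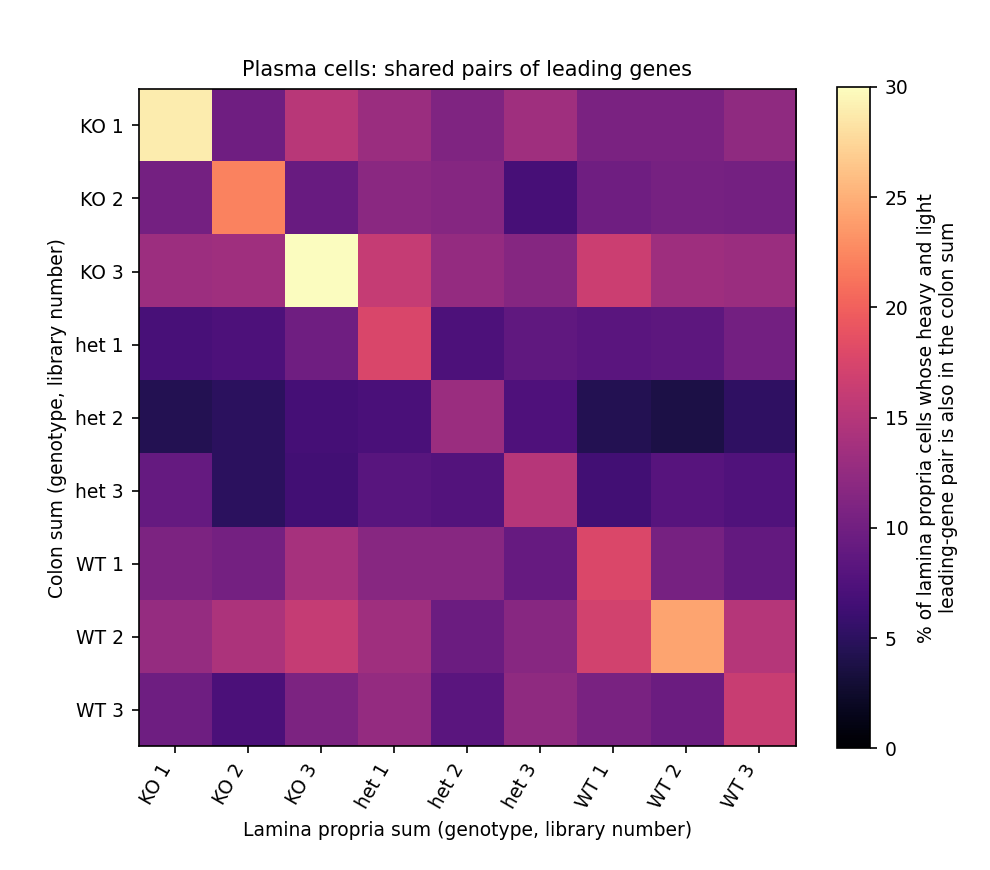
Share of the plasma cells of each lamina propria sum (columns; genotype and library number) whose pair of leading heavy and light chain variable genes also occurs in each colon sum (rows), as colour from 0 to 30%. The diagonal, where genotype and library number match, holds 13.0% to 30.0% and is the highest value of its row and of its column in all 9 cases.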

How the data were processed

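The authors deposited raw UMI counts per gene and cell and per hashtag and cell, from 10x libraries that read the 5' end per the labels' protocols. The other deposited files list cell barcodes and feature names. Per the submitters' processing notes Cell Ranger and Seurat were used with mm10, with no versions given. As the series' design text gives them, cells with 200 to 8000 genes, 300 to 50000 molecules and under 20% mitochondrial counts were kept. No doublet caller was run; cells meeting both gates were left out as an alternative chosen after seeing the data. The members, gates and lists were chosen with earlier results of these data known.

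UMIs were summed per class and ending and tested with edgeR 4.0.16 (quasi-likelihood, TMM, filterByExpr, all genes, Benjamini-Hochberg, threshold 0.05) with the library as a block for genotype, since samples were combined by organ before capture per the labels, the ending as a block for class, and genotype as a covariate for tissue. DESeq2 1.42.0 was an alternative. The check of this pairing gave a median correlation of Ighv use of 0.78 between plasma sums of the same library and 0.76 between other genotypes of other libraries in lamina propria, and 0.52 and 0.55 in colon. Single values were tested with exact permutations (scipy 1.17.1), adjusted over 18 tests. Sums under 10 cells were left out of edgeR, and sums under 20 cells with a leading gene out of shares. Endings held 10988933 to 30418604 UMIs. Named genes are the 10 most used among plasma cells of each tissue and among colon B cells, the most used gene of each plasma sum, up to 10 called genes by smallest p per comparison, Ighv11-2, Ighv12-3 and the highest and lowest plasma to B cell ratios. The edgeR fits were tested on simulated data. RefSeq positions (GRCm38.p6) matched 183 of 185 names. Sequences of the Ighv genes were not used here.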

Additional observations from a re-analysis of the deposited data

Results flagged for a closer look

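Among the 9 colon plasma sums the share of cells led by Ighv1-18 was highest in the het sum of library 3, at 5.93%, and its gap to the next sum was 0.563 of the whole range. In all, 69 groups of 9 sums were looked at in this way and 1 stood out, while the 95% critical value used lets chance pick out about 1 group in 20. That sum holds 118 cells with a leading gene.

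The small bowel epithelium, which enters none of the comparisons, also held plasma cells. Of 16705 cells, 88 met the plasma cell gate and 85 of these had a leading Ighv gene, against 0.156% of 10886 T cells of the same tissue. The 85 cells used 39 genes with an effective number of 37.2. Ighv1-81 led the most, with 7 cells, and the Ighv1 family led 67.1%.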

How the results depend on the processing

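The number of called Ighv genes depended on the tool and filter. By DESeq2, without a filter on low counts and with gates of 2 UMIs the counts between KO and WT were 3, 4 and 1 in lamina propria plasma cells (0 as reported), and between het and WT 2, 1 and 1 (0 as reported). In colon plasma cells they were 5, 16 and 1 for KO (2 as reported). For het, DESeq2 gave 10 and no filter 18 (1 as reported). In colon B cells DESeq2 and no filter gave 4 and 7 for KO (1 as reported) and 3 and 8 for het (0 as reported). No filter gave 98 for colon and 118 for lamina propria plasma against B cells and 37 for B cells between tissues, since more genes were then tested. Without the library block the counts in colon plasma cells were 0 for KO and 0 for het, and 75 genes were called for colon plasma against B cells. Leaving out cells in both gates gave 1 in colon plasma and 0 in colon B cells for KO.

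Leaving out 1 library gave 0 to 1 called genes (KO) and 0 to 2 (het) in lamina propria plasma cells, 1 to 3 and 1 to 2 in colon plasma cells, 1 to 3 and 0 to 2 in colon B cells, and 4 to 11 for B cells between tissues. The KO minus WT difference in effective number ranged from −0.638 to 2.17 in lamina propria and from −0.379 to 5.35 in colon plasma cells. It was −0.777 in colon when a leading gene had to hold 80% and −1.14 with gates of 2 UMIs. The KO minus WT difference in the Ighv1 share of colon plasma cells ranged from −0.519 to 1.85 points, and that in Ighv UMI share of lamina propria plasma cells from −0.134 to 0.349. Colon plasma minus B cells gave an effective number difference of −0.382 to 2.45, and −0.779 under the 80% rule, where the Ighv1 difference was 7.50 points (exact permutation, adjusted p 0.0439). Their Ighv UMI share differed by 17.7 to 18.1 points, with adjusted p 0.188 to 0.260 by exact permutation over 6 endings. Plasma cells were higher in every ending, so the p before adjustment was the smallest that 6 endings allow. Colon minus lamina propria plasma cells gave an effective number difference of 5.43 under the 80% rule, 5.75 with gates of 2 UMIs, and an Ighv1 difference of −1.99 to 0.503 points. In B cells between tissues Ighv5-16, Ighv14-4 and Ighv3-6 turned to 0.588, 0.0660 and 0.865 (log2) without cells in both gates, and Ighv14-4 ranged from −3.05 to 0.56 with 1 library left out. Of 43 results on named genes, 40 kept their sign in every setting run and 29 lost no call in any. The cause of these changes was not tested. For lamina propria plasma against B cells, the 80% rule, gates of 2 UMIs and higher UMI minimums gave no paired values, since fewer than 2 endings remained.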
